A study of Mus musculus with 4 samples.

Results

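Hedgehog signalling and SCUBE genes were described in sorted mouse kidney nephron progenitors through 9 members of the 24339 genes in the deposited table. The members were taken by symbol, and all 9 were found: Scube1, Scube2, Scube3, Ptch1, Hhip, Smo, Gli1, Gli2 and Gli3. They were chosen by name with their FPKM in each library of both lines already known. Their differences between the lines are therefore given as a description. No p-value is printed for a member, and calls of members at the threshold are description too.

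The cells were GFP-positive mesenchymal nephron progenitors sorted by flow cytometry from mouse kidney, and their polyadenylated RNA was sequenced. In 2 libraries the cells came from Six2TGC, a BAC (bacterial artificial chromosome) transgenic line. In the other 2 they came from Six2 Cre/+ mice, called Six2Cre here, where GFP-Cre is knocked in at Six2 itself. Both lines make a Cre recombinase fused to GFP, no library comes from cells without it, and the progenitors of Six2Cre carry an altered Six2 allele. The name of the deposited table gives embryonic day 18, and the sample labels give no age. Separate animals are not stated for the libraries, so tests measure only the spread between these samples.

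Hedgehog ligands are secreted, lipid-modified proteins. In cells that receive them, the ligand binds Patched, which otherwise holds back Smoothened, and active Smoothened acts at the primary cilium on the GLI transcription factors. Ptch1, Gli1 and Hhip are themselves induced by the pathway in many tissues, and their transcripts are widely used as its readout. SCUBE proteins are secreted glycoproteins with EGF-like repeats and a CUB domain that help Dispatched release the ligand from the cells that make it. In the developing mouse kidney the ureteric epithelium makes Sonic hedgehog, and the mesenchyme around it is a known responding tissue.

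The 11 nephron progenitor markers were measured in all libraries, with a summed FPKM between 1955 and 2704. Six2 stood at 749 and 816 in Six2TGC against 545 and 533 in Six2Cre. The values summed to between 481665 and 549971 per library, and between 8168 and 8964 genes were listed at 0. The table holds no counts, so depth is unknown and no counting interval can be given. The Y-linked gene Ddx3y was at 12.7 in Six2TGC replicate 1, and the other 3 libraries list it at 0. Xist stood at 0.0107 in Six2TGC replicate 1, against 75.7 in Six2TGC replicate 2 and 56.7 and 60.6 in Six2Cre. These sex-linked genes were thus not balanced between the lines, and an effect of sex on the members was not tested. Every tested member was within 1.28-fold between the Six2TGC libraries. In bulk RNA, fewer cells of a type and less RNA per cell cannot be told apart.

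Promoter windows of 300 bases, reaching from 250 bases before an annotated transcript start to 50 bases after it, were found for 8 of the 9 members in RefSeq (GRCm38.p6, the assembly also called mm10). Gli1 had no entry. The start used lies 7.86 kilobases inside the outermost GENCODE M21 start of Ptch1, 488 bases inside that of Gli3 and 168 bases inside that of Scube3, and within 20 bases of it for the other 5. Scube3 and Scube1 are shown because the lines were far apart for the first of these related genes and overlapped for the other, and Ptch1 and Hhip because they are known targets of the pathway. Each sequence runs 5′ to 3′ on the strand of its gene. Capitals mark the motifs found on either strand, GGGTGG (the GLI core) and TCANGTTTC (bound by Six2 and its relatives), of 4 searched.
Scube3, chr17:28142059-28142358, plus strand: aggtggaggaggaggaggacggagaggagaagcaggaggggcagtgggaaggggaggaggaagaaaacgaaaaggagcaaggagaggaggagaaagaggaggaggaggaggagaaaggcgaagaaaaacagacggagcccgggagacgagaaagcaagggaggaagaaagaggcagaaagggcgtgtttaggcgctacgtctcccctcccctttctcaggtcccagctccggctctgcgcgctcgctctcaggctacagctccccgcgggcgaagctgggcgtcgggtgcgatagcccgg
Scube1, chr15:83724990-83725289, minus strand: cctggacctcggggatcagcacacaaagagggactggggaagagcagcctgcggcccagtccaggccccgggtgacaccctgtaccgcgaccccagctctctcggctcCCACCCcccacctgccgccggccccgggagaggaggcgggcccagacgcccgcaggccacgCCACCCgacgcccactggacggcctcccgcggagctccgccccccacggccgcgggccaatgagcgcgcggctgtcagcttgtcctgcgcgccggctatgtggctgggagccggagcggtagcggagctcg
Ptch1, chr13:63565686-63565985, minus strand: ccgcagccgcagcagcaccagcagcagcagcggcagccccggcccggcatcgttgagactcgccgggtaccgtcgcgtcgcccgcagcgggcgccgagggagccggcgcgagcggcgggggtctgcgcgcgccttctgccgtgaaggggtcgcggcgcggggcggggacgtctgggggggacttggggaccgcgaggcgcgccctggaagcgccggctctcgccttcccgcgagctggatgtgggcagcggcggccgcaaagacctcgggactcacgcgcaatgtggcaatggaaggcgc
Hhip, chr8:80057959-80058258, minus strand: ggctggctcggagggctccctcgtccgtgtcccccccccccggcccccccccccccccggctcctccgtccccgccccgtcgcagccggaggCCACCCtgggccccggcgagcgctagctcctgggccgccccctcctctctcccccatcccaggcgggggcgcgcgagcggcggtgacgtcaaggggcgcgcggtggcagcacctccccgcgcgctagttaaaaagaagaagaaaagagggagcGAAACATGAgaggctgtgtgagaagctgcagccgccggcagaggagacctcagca

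None of the 8 windows held the full GLI motif TGGGTGGTC, which 0.253% of all 32851 windows hold. None held CTTTGAT, a LEF motif found in 3.73%. The GLI core alone stood in 5 of the 8, in Scube1, Hhip, Smo, Gli2 and Gli3, against 31.5% of all windows. It lies inside the full motif. TCANGTTTC stood in Hhip only, on the opposite strand and beginning 5 bases before the start used, and in 1.08% of all windows. The Scube3 window had the lowest base content of G and C among the members, at 62.0% with 20 CpG, and Ptch1 the highest, at 76.3% with 47 CpG. The median of all windows was 52.7% with 7 CpG. The motif shares over all windows were not matched for base content, so the GLI core count is not read as a feature of the members. A match is a run of letters only, and other start sites and distal elements were not searched.

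Scube3, the SCUBE gene with the highest FPKM in all 4 libraries, had FPKM values of 53.0 and 55.9 in Six2TGC against 5.70 and 6.70 in Six2Cre. Both Six2TGC libraries were far above both Six2Cre libraries, and no pair of libraries from different lines differed by less than 7.91-fold. Means were 54.5 ± 2.04 and 6.20 ± 0.712 (SD, n = 2 per line), a ratio of 8.79. On the log2(FPKM + 1) scale, which understates changes of low genes, the difference was 2.95 ± 0.0989 (SE), which is rank 18 from the top of 11917 tested genes.

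Scube1, which is also reported to bind BMP ligands, stood at 3.11 and 3.99 in Six2TGC against 2.06 and 3.77 in Six2Cre. The lines overlapped, and the Six2Cre libraries differed from each other by 1.83-fold. The log2 difference of 0.25 ± 0.231 (SE) became -0.075 without Six2Cre replicate 1. Scube2, the member best known for release of Sonic hedgehog, was the lowest member in all 4 libraries, at 0.113 and 0.0783 in Six2TGC against 0.0404 and 0.0399 in Six2Cre. It fell under the minimum mean FPKM of 1 that was required for a fit, and with no counts its order between the lines cannot be weighed against counting error.

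The makeup of the SCUBE family differed by line, which largely follows from the Scube3 values above and is not a separate result. FPKM is corrected for gene length, so levels can be added across genes. Scube3 made up 94.3% and 93.2% of summed SCUBE FPKM in Six2TGC, and 73.1% and 63.7% in Six2Cre. The sum itself was 56.3 and 60.0 in Six2TGC against 7.80 and 10.5 in Six2Cre. Scube1 took most of the remainder, with 26.4% and 35.9% in Six2Cre.

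**Figure D1:**
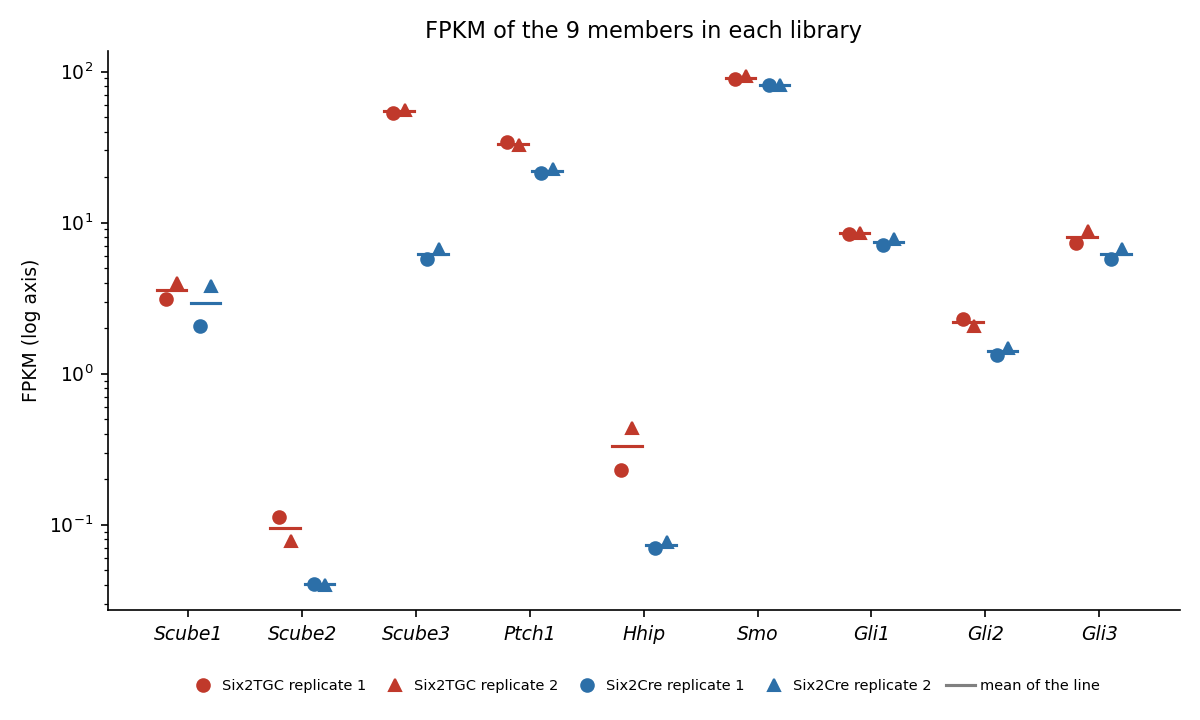
FPKM of each member (log axis) in the 4 libraries, with red for Six2TGC, blue for Six2Cre, a circle for replicate 1, a triangle for replicate 2 and a bar for the mean of the line. Scube3 is set apart by line, at 53.0 and 55.9 against 5.70 and 6.70, while Scube1 overlaps.

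Scube3 lies on chromosome 17 at 28142141 to 28174854 on the plus strand (mm10, GENCODE M21), 57.5 megabases from Six2 on the same chromosome. The deposited table lists it in 1 shared block with Zfp523, Def6, Ppard and 1810013A23Rik, so the genes beside it are given with it. The noncoding gene AC126937.2 overlaps Scube3 on the opposite strand. How reads within the block were assigned is not stated. Zfp523 begins 2.27 kilobases beyond Scube3 and stood at 42.4, 41.6, 42.4 and 40.3 in Six2TGC replicates 1 and 2 and Six2Cre replicates 1 and 2. Its log2 difference was 0.02 ± 0.0746 (SE, limma adjusted p = 0.859). Def6 had no call either (-0.15, limma adjusted p = 0.562), and Ppard, which encodes a lipid-sensing nuclear receptor, rose by 0.35 (limma adjusted p = 0.0302), a call that held without Six2TGC replicate 2 (0.0411) but was lost without Six2TGC replicate 1 (0.0858), Six2Cre replicate 1 (0.134) or Six2Cre replicate 2 (0.188, all limma adjusted p). On the other side, Tcp11 stood at 0.53 (limma adjusted p = 0.0752) and Anks1 at 0.32 (0.0602 in limma, adjusted), both without a call. The differences of these 5 genes were all below that of Scube3. Anks1, Tcp11 and Ppard had both Six2TGC libraries above both Six2Cre libraries, as 29.5% of all tested genes did, while Zfp523 and Def6 overlapped.

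**Figure D2:**
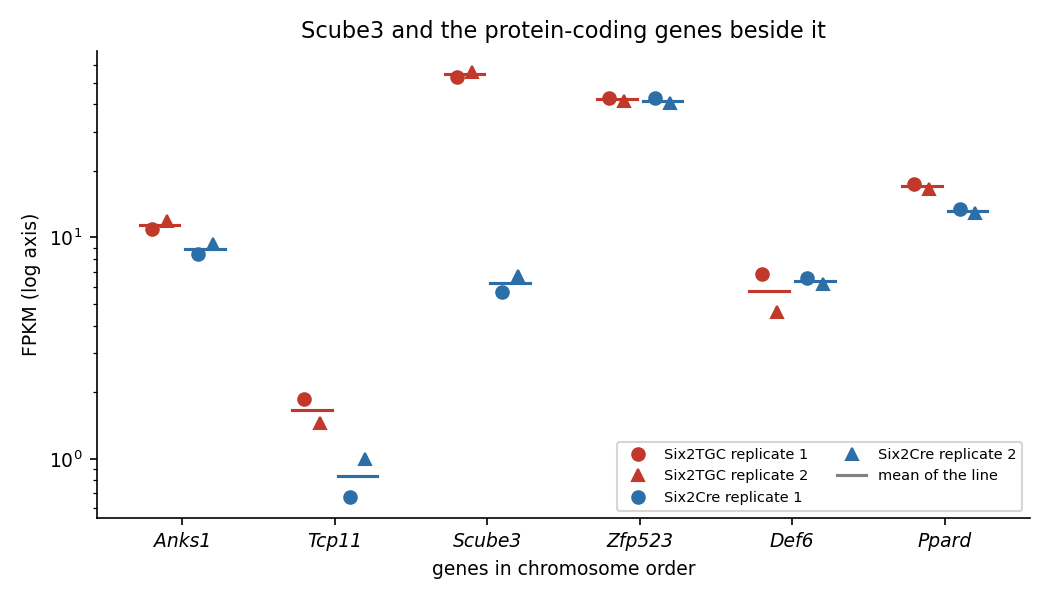
FPKM (log axis) of Scube3 and the protein-coding genes beside it in chromosome order, by library, with a bar for the mean of each line. Scube3 is separated by 8.79-fold between line means. Zfp523, which begins 2.27 kilobases beyond it, stays between 40.3 and 42.4 in all 4 libraries. Anks1, Tcp11 and Ppard also have both Six2TGC libraries above both Six2Cre libraries, by less than Scube3, and Def6 overlaps.

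Ptch1, the receptor gene and a standard readout of the pathway, stood at 34.0 and 32.6 in Six2TGC against 21.3 and 22.5 in Six2Cre. The lines did not overlap. Means were 33.3 ± 0.986 and 21.9 ± 0.885 (SD, n = 2), a ratio of 1.52, and the log2 difference was 0.58 ± 0.0800 (SE). Hhip, which encodes a membrane protein that binds and sequesters the ligands, was low throughout, at 0.231 and 0.436 in Six2TGC against 0.0697 and 0.0764 in Six2Cre. The mean ratio was 4.57, and the Six2TGC libraries differed from each other by 1.89-fold. Like Scube2, Hhip was below the minimum level for a fit.

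Smo, the transducer that Patched restrains, had the highest level of the members in every library, at 88.6 and 93.1 in Six2TGC against 81.6 and 81.5 in Six2Cre. The lines were apart by little, with a ratio of means of 1.11 and a log2 difference of 0.15 ± 0.0717 (SE). Its transcript exceeded that of Ptch1 in all 4 libraries.

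Among the GLI factors, Gli1, an activator that is itself a target of the pathway, stood at 8.46 and 8.49 in Six2TGC against 7.15 and 7.75 in Six2Cre. The ratio of means was 1.14 and the log2 difference 0.17 ± 0.106 (SE). Gli1 shares its listed locus with Arhgap9, which overlaps it on the opposite strand. Reads of the overlapping stretch cannot be told apart unless counting used strand, which no source used here states. Arhgap9 itself was between 0.239 and 0.534 in the 4 libraries.

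Gli2, the main activator downstream of Smoothened, stood at 2.30 and 2.07 in Six2TGC against 1.32 and 1.49 in Six2Cre. The ratio of means was 1.56 and the log2 difference 0.41 ± 0.156 (SE). Gli3, which acts mainly as a repressor in the absence of ligand and whose truncated forms disturb kidney development in mice, stood at 7.38 and 8.73 in Six2TGC against 5.77 and 6.64 in Six2Cre. Its ratio was 1.30 and its log2 difference 0.33 ± 0.129 (SE). None of the GLI genes overlapped between the lines, but the closest libraries of different lines were only 1.09-fold apart for Gli1 and 1.11-fold for Gli3. Among all tested genes, 29.5% had both Six2TGC libraries above both Six2Cre libraries and 36.4% had the reverse, so a lack of overlap is common.

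Gli1 made up 46.7% and 44.0% of summed GLI FPKM in Six2TGC and 50.2% and 48.8% in Six2Cre. Gli3 made up 40.7% and 45.3% in Six2TGC and 40.5% and 41.8% in Six2Cre. Gli2 was the least abundant, between 9.25% and 12.7%.

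By level, Smo was first in all 4 libraries, and Scube1, Gli2, Hhip and Scube2 were the lowest, in that order, in all 4. In between, Scube3 had rank 2 in both Six2TGC libraries, ahead of Ptch1, and ranks 5 and 4 in the Six2Cre libraries. Gli1 and Gli3 changed places between Six2TGC replicates, so their order was not resolved there. In Six2Cre, Scube3 at 6.20 ± 0.712 lay within the spread of Gli3 at 6.21 ± 0.612 (SD, n = 2).

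Of the 9 members, 8 had both Six2TGC libraries above both Six2Cre libraries, 0 had the reverse and 1 overlapped. Among all genes with a value above 0, 26.5% had both Six2TGC libraries above. Of the 7 members tested, 6 were separated in that way, against 29.5% of tested genes, and 0 in the reverse way, against 36.4%. Of those 7, 2 (Scube3 and Ptch1) passed an adjusted p of 0.05 over all genes, both higher in Six2TGC. Over all tested genes, 24.3% passed in either direction, 10.8% rising and 13.5% falling. In the authors' deposited table the same 2 were significant, against 13.5% of the genes it tested in either direction and 6.94% higher in Six2TGC. The median log2 difference of the 7 was 0.33, and that of all tested genes -0.03. The members were picked with these values known, so nothing is read from these counts.

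**Figure D3:**
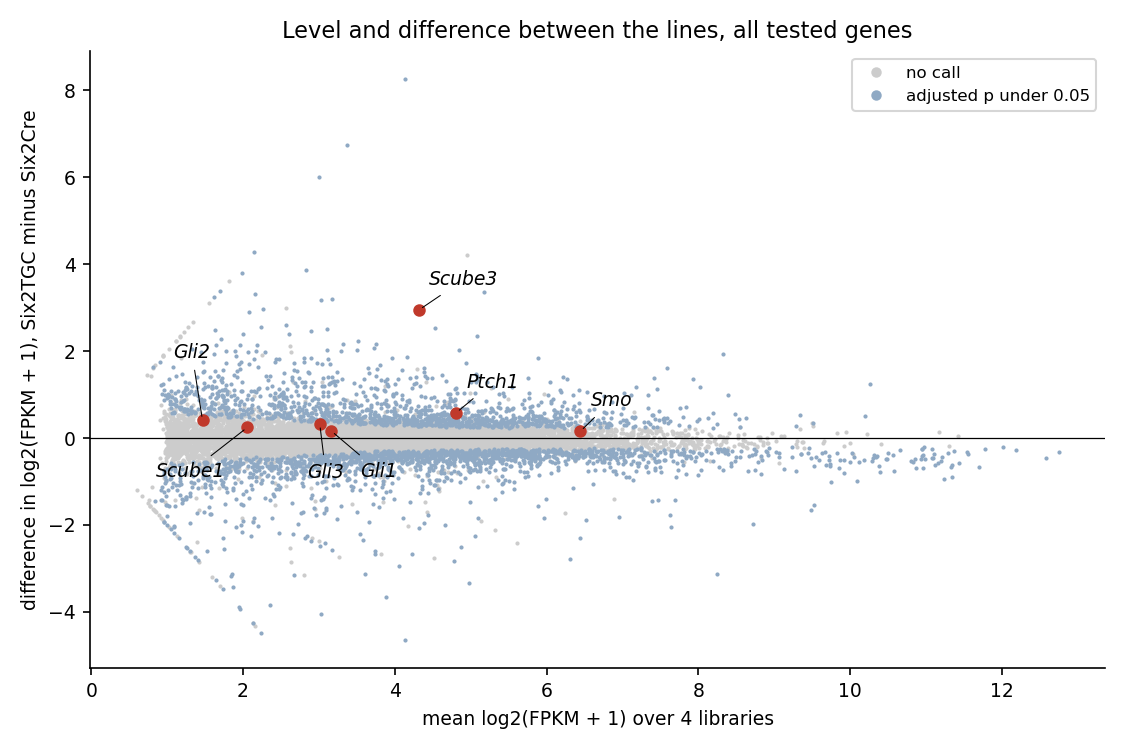
Difference between the lines in log2(FPKM + 1), Six2TGC minus Six2Cre, against the mean level over the 4 libraries for the 11917 tested genes, with blue for genes at an adjusted p under 0.05, grey for the rest and red for the 7 tested members. Scube3 stands at 2.95, while the other 6 lie between 0.15 and 0.58.

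The tested genes whose profile over the 4 libraries was closest to that of Scube3, by Euclidean distance between centred log2(FPKM + 1) values, were Fzd10 (0.223), a Wnt receptor gene, Pianp (0.268) and Gdf7 (0.392), a gene of the BMP ligand family. Fzd10 stood at 10.8 and 14.4 in Six2TGC against 0.607 and 0.815 in Six2Cre, and Gdf7 at 12.3 and 13.9 against 0.384 and 0.434. For Ptch1 the closest were Stk26 (0.0210), Hoxc8 (0.0220) and Fkbp10 (0.0282), and for Gli2 Skida1 (0.0116), Pcdhb19 (0.0244) and Kdm5b (0.0270). With 4 libraries such likeness says little beyond a similar size of difference and of replicate spread.

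The ligands themselves were at or near 0. Shh was listed at 0 in all 4 libraries, and Dhh in all but Six2Cre replicate 1, where it was 0.0621. Ihh stood at 0.0556 and 0.348 in Six2TGC against 0.660 and 0.296 in Six2Cre. The libraries of the lines overlapped for Ihh, and none of the 3 ligand genes reached the level for a test. A listed 0 is not evidence of absence.

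Genes for ligand modification and release were present. Disp1, which encodes the Dispatched protein that works with SCUBE proteins, rose by 0.46 ± 0.0854 (SE, limma adjusted p = 8.20e-03), at 34.1 and 38.2 in Six2TGC against 26.2 and 25.6 in Six2Cre. Hhat, the acyltransferase that adds the ligand's fatty acid, rose by 0.34 (limma adjusted p = 0.0403), from 9.15 ± 0.349 to 11.8 ± 0.157 (SD, n = 2). Disp2 was listed at 0 in all libraries, and the 2 tested genes of this list were both higher, where 10.8% of all tested genes were. The Disp1 call was lost without either Six2Cre library (limma adjusted p = 0.0741 and 0.0841), and the Hhat call was lost when any library was left out.

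Of 4 co-receptors tested, 0 were higher and 2 lower, where 10.8% and 13.5% of all tested genes were. Cdon, a co-receptor that holds ligand for Patched, fell by 0.57 (limma adjusted p = 0.0124), with 5.49 and 5.42 in Six2TGC against 8.03 and 9.16 in Six2Cre. Lrp2, a large endocytic receptor that binds Sonic hedgehog and is also a proximal tubule gene, fell by 0.87 (limma adjusted p = 0.0129), with 0.725 and 1.03 against 2.73 and 2.13. Both calls were lost without either Six2Cre library (limma adjusted p from 0.0618 to 0.132). Gas1, the co-receptor with the highest level, stood at 375 and 361 in Six2TGC against 404 and 463 in Six2Cre (-0.23, limma adjusted p = 0.0754). Boc (0.18, limma adjusted p = 0.180) had no call either.

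Of 17 tested intracellular transducers, 0 were higher and 1 lower, with a median of 0.01 against -0.03 for all tested genes. Of all tested genes, 10.8% were higher and 13.5% lower. Adrbk1, the kinase gene now named Grk2, fell by 0.30 (limma adjusted p = 0.0285), and that call was lost without any 1 of the 4 libraries. The GLI-binding repressor Sufu (0.18, limma adjusted p = 0.132) and the ciliary kinesin Kif7 (0.23, 0.0928 in limma, adjusted) had none. Of 14 ciliary transport genes, 0 were higher and 1 lower, Dync2li1 (-0.38, limma adjusted p = 0.0105), a call that did not hold without either Six2Cre library (0.0882 and 0.0988 in limma, adjusted).

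Other genes reported as Hedgehog targets included 5 higher and 0 lower among 10 tested, with a median of 0.37 against -0.03 for all tested genes, of which 10.8% were higher. Bmp4 rose by 1.27 (limma adjusted p = 3.01e-04), at 17.01 and 15.3 against 6.49 and 5.71, and Ccnd1, a cyclin gene, by 1.02 (5.07e-04 in limma, adjusted), at 63.9 and 53.0 against 28.4 and 27.9. Tbx2 rose by 0.83 (limma adjusted p = 0.0262), and the forkhead genes Foxl1 and Foxc2 were the other 2 higher. Without Six2Cre replicate 1 and without Six2Cre replicate 2, Bmp4 and Ccnd1 kept their calls while Tbx2, Foxl1 and Foxc2 lost theirs. The Tbx2 call was also lost without Six2TGC replicate 1 (limma adjusted p = 0.0957), and the Foxl1 call without either Six2TGC library. Without Six2TGC replicate 2 the counts were 4 higher and 1 lower, the latter being the cyclin gene Ccnd2 (-0.39, limma adjusted p = 0.0282). Bmp4 and Ccnd1 respond to other pathways too. Mycn (0.29, limma adjusted p = 0.180) and Bcl2 (-0.14, 0.341 in limma, adjusted) had no call, Hand2, Nkx2-2 and Nkx3-2 were listed at 0 in all 4 libraries, and Foxf1 and Foxf2 were at or below 0.120.

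Of 4 tested receptors that SCUBE proteins are reported to bind, 1 was higher, where 10.8% of all tested genes were. Bmpr1b, a BMP receptor gene, rose by 0.93 (limma adjusted p = 4.43e-03), at 4.54 and 3.97 in Six2TGC against 1.65 and 1.87 in Six2Cre, a call lost without Six2Cre replicate 1 (limma adjusted p = 0.0575). Tgfbr2 (0.33, limma adjusted p = 0.0531), Bmpr2 (0.08) and Bmpr1a (0.04) had no call. Without Six2TGC replicate 2, Tgfbr2 also passed (0.43, limma adjusted p = 0.0285), which made 2 higher. Over all the pathway lists, 51 genes were tested, with 8 higher, 4 lower and 39 without a call. The 12 called genes are 23.5% of those tested, which is near the 24.3% of all tested genes. Leaving out Six2Cre replicate 1 reduced the 12 calls to 2, and leaving out Six2Cre replicate 2 reduced them to 3.

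**Figure D4:**
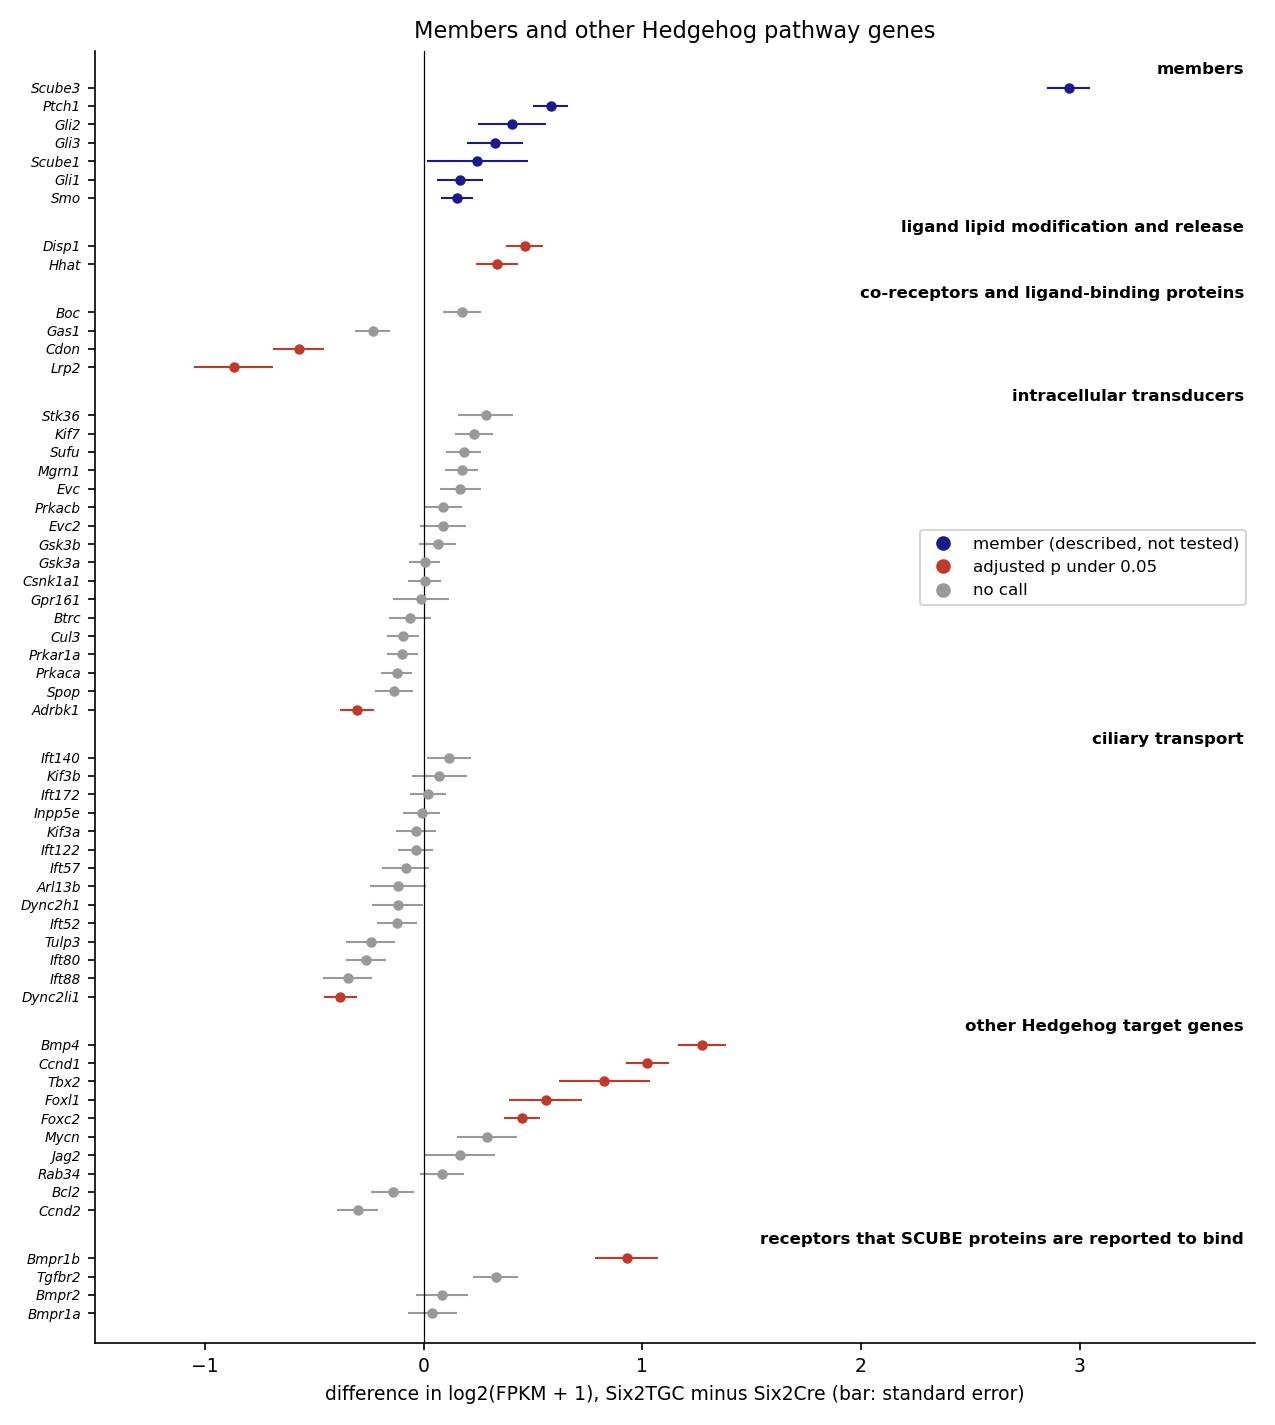
Difference between the lines in log2(FPKM + 1), Six2TGC minus Six2Cre, with standard error, for 7 fitted members and 51 other pathway genes by role. Members are described only and are dark blue whatever their call. The other genes are red where the adjusted p was under 0.05 and grey elsewhere. Scube3 at 2.95 is far from the others, the co-receptors Cdon and Lrp2 lie below 0, and the transducers and ciliary genes lie around 0.

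Markers of other kidney cells moved with the line as well, and their part in the values of the members was not tested. The counts of each marker list, here and in the next paragraph, stand beside 10.8% of all tested genes higher and 13.5% lower. Renal stroma expresses Ptch1 and Gli1 in the developing kidney. Of 10 tested stromal markers, 4 were higher and 0 lower in Six2TGC. The genes behind that count changed when either Six2Cre library was left out, so not all of these calls held. The 12 listed stromal markers summed to 264 and 210 in Six2TGC, against 170 and 150 in Six2Cre. Tcf21, the most abundant, stood at 72.9 and 58.5 against 59.9 and 70.7, and the stromal gene Foxd1 at 56.9 and 55.2 against 37.3 and 33.2. Tbx18 was listed at 0 in all libraries but Six2TGC replicate 2. Markers of early differentiating nephron structures summed to 341 and 355 in Six2TGC, against 123 and 125 in Six2Cre, with 8 of 9 tested higher and 1 lower. Their most abundant gene, Wnt4, stood at 110 and 120 against 9.36 and 11.2. The 1 lower was Fgf8, at 10.05 and 9.22 in Six2TGC against 39.4 and 41.3 in Six2Cre. The progenitor marker Cited1 stood at 109 and 94.6 in Six2TGC against 907 and 878 in Six2Cre, and of 11 progenitor markers 1 was higher and 7 lower. The 7 became 4 without Six2TGC replicate 1, 3 without Six2Cre replicate 1 and 4 without Six2Cre replicate 2. The progenitor sum, 1955 and 2040 in Six2TGC against 2704 and 2614 in Six2Cre, turned direction without Cited1, at 1846 and 1946 against 1797 and 1737, a sum chosen after seeing the data. The most abundant gene in that sum was Six2, at 749 and 816 in Six2TGC against 545 and 533 in Six2Cre. Its allele is altered in Six2Cre. Six2 was the 1 progenitor marker called higher in the fit of all 4 libraries. Cited1, Eya1, Pax2, Wt1, Gdnf, Itga8 and Meox1 were the 7 called lower there.

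The ureteric epithelium, the usual source of Sonic hedgehog, had 12 listed markers that summed to 35.2 and 28.8 in Six2TGC, against 53.2 and 55.6 in Six2Cre. Most of that sum was Hoxb7, with a mean of 26.8 over the 4 libraries, while Ret reached at most 0.183 and Wnt9b at most 0.0948. Krt18, also in the sum, stood at 2.82 and 1.79 in Six2TGC against 12.2 and 17.5 in Six2Cre. Wnt11 went the other way, at 4.84 and 3.87 in Six2TGC against 1.23 and 0.889 in Six2Cre. Of 5 tested, 1 was higher and 3 lower, with 1 lower once either Six2Cre library was left out. Proximal tubule markers, which include Lrp2, summed to 1.08 and 2.16 in Six2TGC, against 25.3 and 11.1 in Six2Cre, with 3 of 4 tested lower, led by Slc34a1 at 14.6 and 6.24 in Six2Cre. Without Six2TGC replicate 1 or Six2Cre replicate 1 the 3 became 1, and without Six2TGC replicate 2 they became 2. The 5 podocyte markers used summed to 4.42 and 4.30 against 3.84 and 3.86, led by Synpo, with 0 of 1 tested called. Immune and blood markers summed to between 15.6 and 24.9, led by Cd68, with 1 of 3 higher (0 without either Six2Cre library) and 1 lower. Endothelial markers summed to between 0.616 and 6.07, led by Cdh5, with 0 tested.

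**Figure D5:**
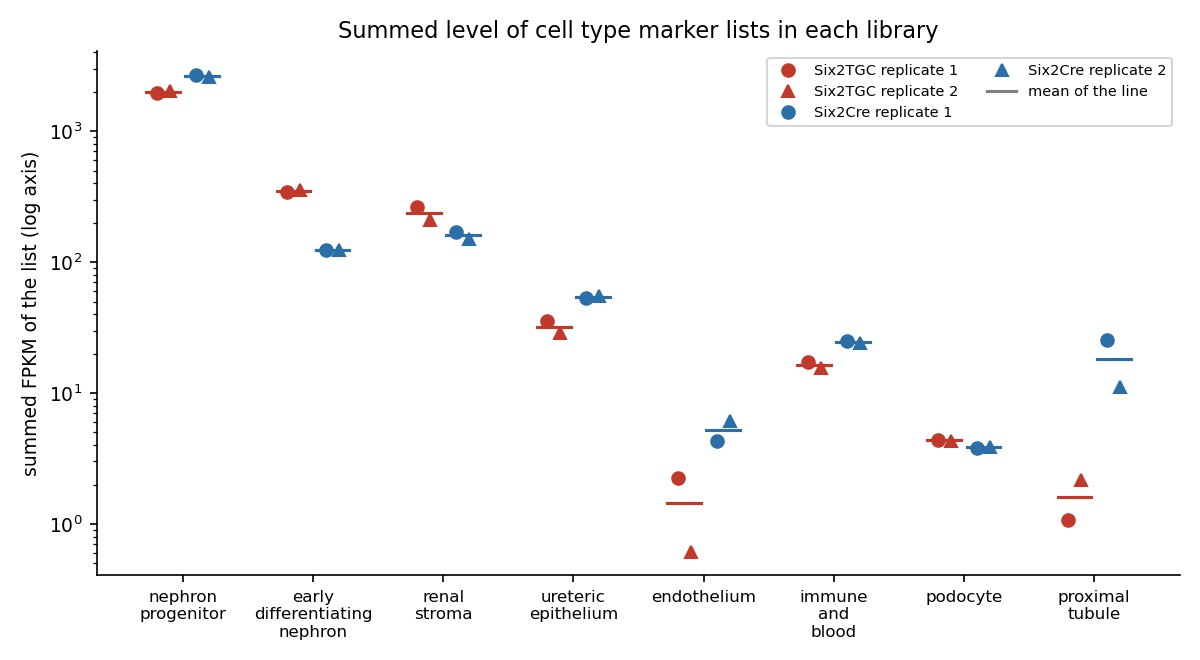
Summed FPKM (log axis) of each marker list in the 4 libraries, with red for Six2TGC, blue for Six2Cre and a bar for the mean of the line. The sums of early differentiating nephron and stromal markers were higher in both Six2TGC libraries, and the ureteric and proximal tubule sums were lower. Not every gene of a list followed its sum, as with Fgf8 of the early nephron list and Wnt11 of the ureteric list. The progenitor sum was lower too, but not once Cited1 was left out, where Six2 is the most abundant gene left. Of the 11 progenitor markers, 7 were called lower and 1, Six2, higher.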

How the data were processed

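The submitters' processing notes name HISAT2, Cuffdiff and the mm10 build. Versions, annotation and strand use are not stated there. Per the file headers, the authors deposited an FPKM value for each gene in each library, with means by line. A p-value and q-value of their own test are also in the deposited table. Of 24339 genes, 27 symbols had been turned into dates, and 1 emptied line is not analysed here.

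The 11917 genes whose FPKM averaged 1 or more were compared between lines on log2(FPKM + 1) using limma 3.58.1 (R 4.3.3) with trend and robust estimation, two-sided, without covariates, at a Benjamini-Hochberg adjusted p under 0.05 over all genes. Differences are Six2TGC minus Six2Cre, and ratios are of mean FPKM. Library names run apart between the lines, so line and any batch cannot be told apart.

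The members, lists and motifs were chosen with earlier results of these data known. Named genes were the members, the ligands, up to 3 called genes per pathway list with the largest differences, Six2, Cited1 and Wnt4, the most abundant gene of each marker list and the closest profiles. Foxl1, Foxc2, genes without a call, the genes beside Scube3 and other markers were chosen after values were seen. Of 63 listed pathway genes 62 were found, Grk2 as Adrbk1. Some genes of the pathway and marker lists are not reported here and are in no list count or sum. Alternatives covered the pseudocount, the filter, scaling, the variance model, a replicate block, each library left out and the authors' test.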

Additional observations from a re-analysis of the deposited data

How the results depend on the processing

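Scube3 and Ptch1 kept their direction under all 11 alternatives, at 2.85 to 3.12 for Scube3 and 0.54 to 0.62 for Ptch1 on the log2 scale. The members were picked with these values known, and the alternatives reuse the same libraries. The values of the members under them are therefore a description only. Of 75 values of members under alternatives, 73 kept direction and side of the threshold. Gli2 passed the threshold without trend and robust estimation (0.41), and Scube1 ran from -0.075 (without Six2Cre replicate 1) to 0.566 with 1 library left out. The cause was not tested. The members called numbered 2 under all alternatives except that variance model, with 3. The pathway calls ran from 2 to 11 with 1 library left out, against 12, and the calls over all genes from 953 to 2736, against 2900. These fits have fewer samples. The authors' deposited test called 1637 genes. Scaling moved the median of all genes by less than 0.1 on the log2 scale, but under quantile normalization more genes were higher (1448) than lower (1347), the reverse of 1286 and 1614, as also without Six2Cre replicate 1 (481 and 472).

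With the replicate number as a block, 2 members, 11 pathway genes and 2713 genes in all were called. Libraries with the same number did not deviate together (r = -0.0399 over 11917 genes), so the numbers are not shown to pair the samples. With no counts, the counting error of Scube2 and Hhip, the lowest members, cannot be given.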
